A study of Mus musculus with 9 samples.

Results

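The 37 genes described here are type I interferon-stimulated genes, chosen by name from the literature on the interferon response and grouped by the role of their products. The choice was made with earlier results of these data known. All 37 had a row of their own among the 23944 genes of the deposited tables, and all 37 passed the filter on low counts that left 15834 genes to test. RNA was sequenced from whole left lungs of adult wild type mice in 3 groups of 3 libraries. Naive lungs came from C57BL/6 mice and were not transplanted. Cold-ischemia grafts were C57BL/6 lungs kept at 0 °C for 24 h and then reperfused for 2 h in a Balb/C recipient. Shock grafts had the same 24 h of storage and 2 h of reperfusion, but the donor had first gone through 4 h of hypovolemic shock at a mean arterial pressure of 15 ± 5 mmHg and 20 h of recovery. A graft therefore held donor cells together with cells that entered from the recipient, which is of another strain. No group had donor shock without transplantation, or transplantation without cold storage. The design asks how a graft differs from a naive lung and whether donor shock changes that difference.

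Type I interferons, interferon beta and the interferon alphas, bind a receptor made of IFNAR1 and IFNAR2 on nearly every cell type. The receptor's kinases JAK1 and TYK2 activate STAT proteins, among them STAT2, which joins IRF9 in the complex ISGF3. ISGF3 binds the interferon-stimulated response element (ISRE) upstream of target genes, and the products of these genes detect viral RNA, block viral replication or tune the response itself.

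Total counts per library ran from 18913487 to 34986276 reads assigned to genes. The deposited tables place 2 of the 9 libraries in the other graft group from their titles. Cold-ischemia replicate 2 stands among the shock grafts in the table headers, and shock replicate 3 among the cold-ischemia grafts. Groups below follow the titles, and results that rest on these libraries are also given with the groups of the tables and without both libraries. On the first 2 principal components of all tested genes shock replicate 3 (-39.9, 29.6) lay beside cold-ischemia replicate 1 (-41.1, 29.3). On the second component cold-ischemia replicate 2 (5.52) lay between cold-ischemia replicate 1 and shock replicate 1 (-11.1). Which grouping is right was not tested. The labels of the 3 naive libraries also cite records of another series, so any difference in preparation between naive lungs and grafts cannot be told apart from transplantation. The labels do not say that libraries of a group came from separate animals, so p-values measure the spread between these samples only. Lung identity was clear: 6 alveolar type 2 markers summed to between 17992 and 25727 CPM (reads per gene scaled to library size) in the 9 libraries, and 6 endothelial markers to between 2622 and 4927 CPM.

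Promoters were read from RefSeq (GRCm38.p6) as windows from 250 bases before to 50 bases after each annotated start. Windows were found for 29 of the 37 genes. The ISRE core was taken as GAAA, any 2 bases and GAAA again, and was searched on both strands with overlapping matches allowed. It was present in 15 of the 34 windows of these genes (44.1%), in 3.44% of all 32851 windows and 3.18% of the windows of tested genes. The letters of a gamma-activated site, TTCNNNGAA, which can share bases with an ISRE match, were present in 20.6% of the windows of the 37 genes and in 8.30% of all windows. A match describes the letters of the window and is not evidence of binding. The windows below each lie wholly upstream of the start and show how the core is arranged in strongly raised genes (Rsad2, Ifit1, Isg15, Oas3, Ifit3), in moderately raised genes (Ddx60, Stat2) and in Bst2, which was called in neither graft group. They are written 5′ to 3′ on the strand of the gene, with capitals marking ISRE matches. A match on the opposite strand reads as TTTC, 2 bases and TTTC. In mm10 coordinates they lie at chr12:26456538-26456597 for Rsad2 (minus strand), chr19:34640760-34640819 for Ifit1 (plus strand), chr4:156200862-156200921 for Isg15 (minus strand) and chr5:120777700-120777759 for Oas3 (minus strand). The others lie at chr19:34583382-34583441 for Ifit3 (plus strand), chr8:61928009-61928068 for Ddx60 (plus strand), chr10:128270251-128270310 for Stat2 (plus strand) and chr8:71537568-71537627 for Bst2 (minus strand).
Rsad2: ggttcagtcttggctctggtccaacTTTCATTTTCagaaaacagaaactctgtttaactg
Ifit1: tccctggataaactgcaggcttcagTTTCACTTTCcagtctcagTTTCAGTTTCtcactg
Isg15: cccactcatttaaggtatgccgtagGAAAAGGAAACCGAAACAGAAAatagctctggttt
Oas3: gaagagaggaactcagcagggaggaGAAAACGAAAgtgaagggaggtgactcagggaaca
Ifit3: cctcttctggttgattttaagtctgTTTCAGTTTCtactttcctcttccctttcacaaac
Ddx60: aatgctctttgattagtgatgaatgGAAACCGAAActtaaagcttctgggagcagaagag
Stat2: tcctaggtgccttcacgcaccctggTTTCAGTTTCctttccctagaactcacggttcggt
Bst2: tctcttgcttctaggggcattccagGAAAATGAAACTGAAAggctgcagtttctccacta

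The Isg15 window held 3 overlapping matches in 1 run and the Bst2 window held 2, while the whole Rsad2 promoter held 1. The match shown for Ifit3 is the nearer of 2 to the start, at -122. Counted from the annotated start, the first base of the match shown was at -120 in Rsad2, -75 in Oas3, -53 in Ddx60 and -130 in Bst2. The 14 genes with a match had a median log2 fold change of 1.47 in shock grafts against naive lungs, and the 15 genes with a window but no match had 1.19. The 8 genes with no window had a median of 2.17. Genes of very large and of very small change were found on both sides: Oasl1, with no match, and Rsad2, with a match, were both near the top, and Bst2, with matches, was at the bottom.

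**Figure D1:**
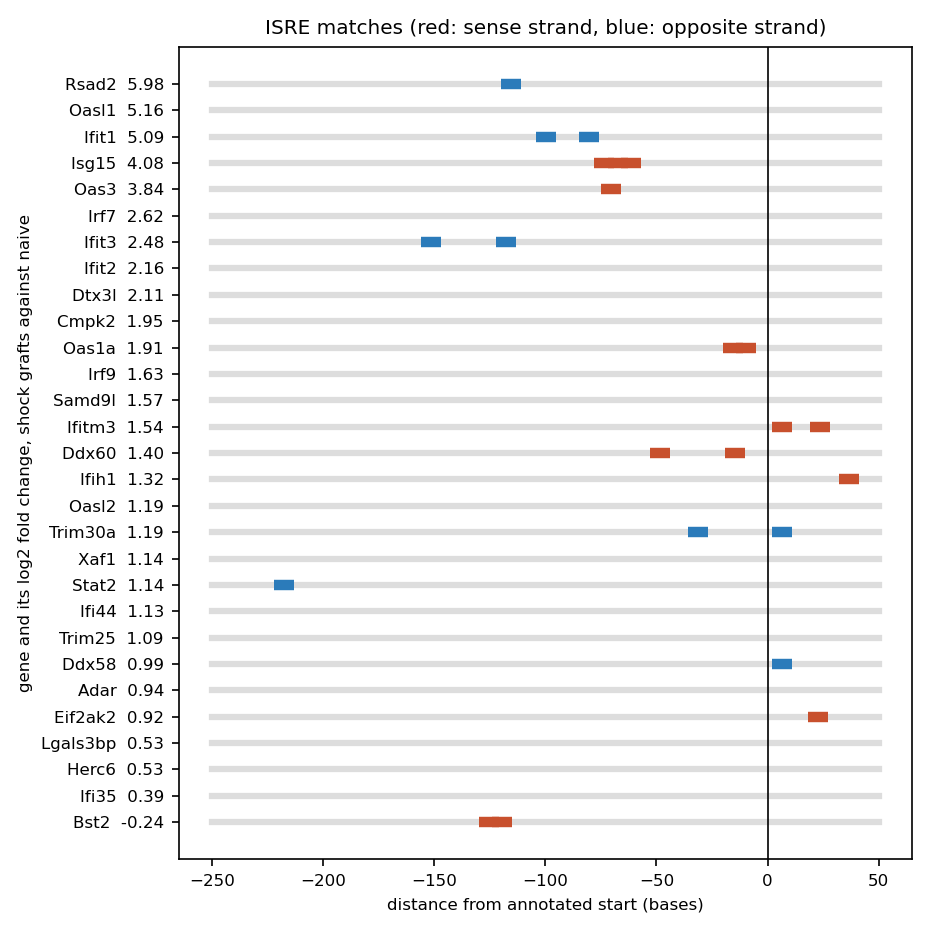
Positions of ISRE core matches (GAAA, any 2 bases, GAAA) in RefSeq promoter windows of 29 interferon-stimulated genes, in bases from the annotated start on the x axis, with genes ordered by their log2 fold change in shock grafts against naive lungs. Matches of 14 genes are drawn as blocks, coloured by strand, and genes with a match occur from the top (Rsad2, 5.98) to the bottom (Bst2, -0.24) of the order.

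In cold-ischemia grafts 19 of the 37 genes were higher than in naive lungs and none was lower, where 17.5% of all tested genes were called higher, 13.1% lower and 30.6% in either direction. In shock grafts 33 of the 37 were higher and none was lower, where 22% of all tested genes were called higher, 17.9% lower and 39.9% in either direction. A gene was called at an adjusted p under 0.05 in edgeR's quasi-likelihood test across all tested genes. The median log2 fold change of the 37 genes was 0.92 in cold-ischemia grafts and 1.57 in shock grafts, against -0.04 and -0.06 over all tested genes. The comparisons share the naive libraries, so the 2 sets of values are not independent of each other. In tissue RNA a change in the number of cells of a type and a change in RNA per cell cannot be told apart.

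Leaving out both libraries of disputed group gave 17 genes higher in cold-ischemia grafts, where 15.6% of all tested genes were called higher and 10.8% lower, and 35 in shock grafts, where 22.2% were called higher and 19.9% lower. The groups of the deposited tables gave 21, where 19.3% of all tested genes were called higher, and 34, where 23.8% were. The authors' deposited tables called 23 of the 37 genes higher in their cold-ischemia comparison, where 36.2% of genes with an adjusted p were called in either direction, and 34 in their shock comparison, where 37.3% were. All 3 cold-ischemia libraries lay above all 3 naive libraries for 19 genes (25.1% of all tested genes), and all 3 shock libraries did so for 34 genes (26.4%). All 3 cold-ischemia libraries lay below all 3 naive libraries for 0 of the 37 genes (25.8% of all tested genes).

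**Figure D2:**
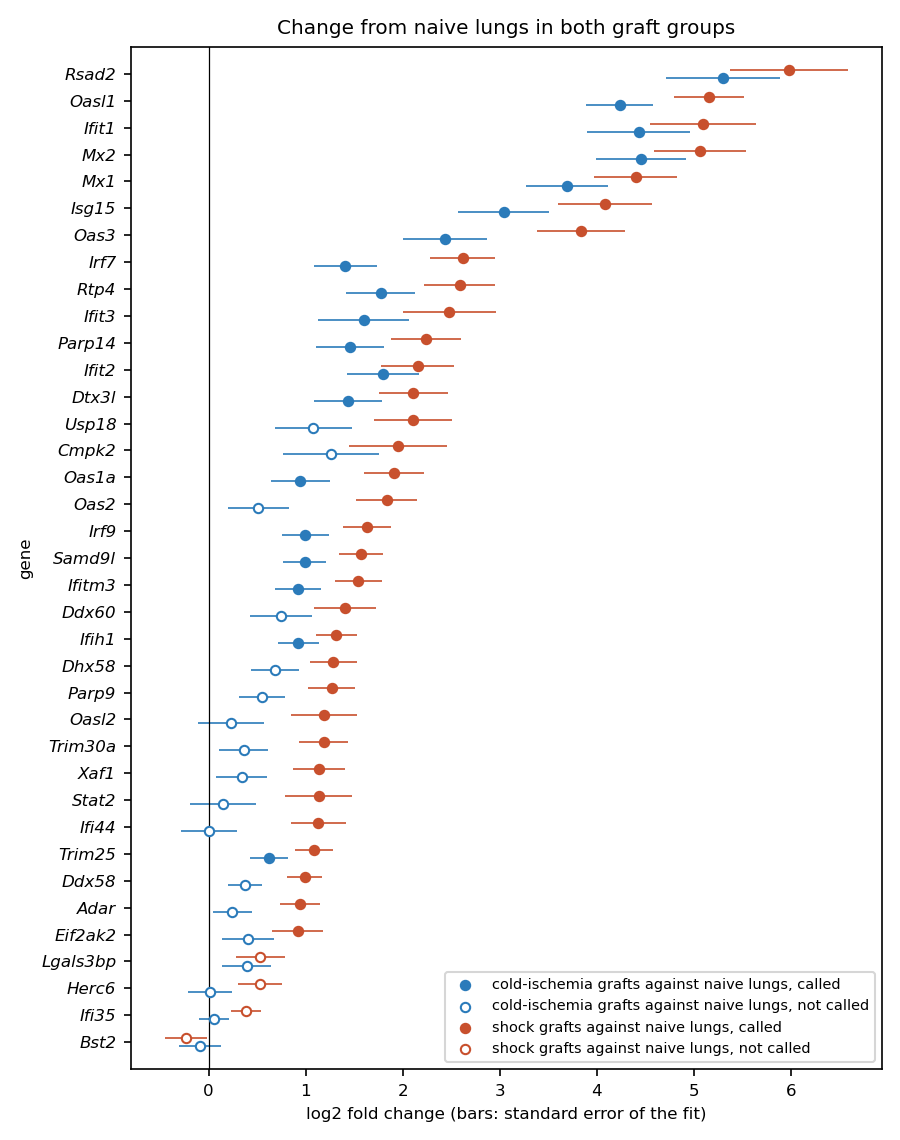
Log2 fold change against naive lungs of the 37 interferon-stimulated genes on the x axis, in cold-ischemia grafts (blue) and shock grafts (red), with the standard error of the fit as bars and filled points for genes that passed the test. Of the filled points, 19 are blue and 33 are red, and 36 of the 37 points of each colour lie right of 0.

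**Figure D3:**
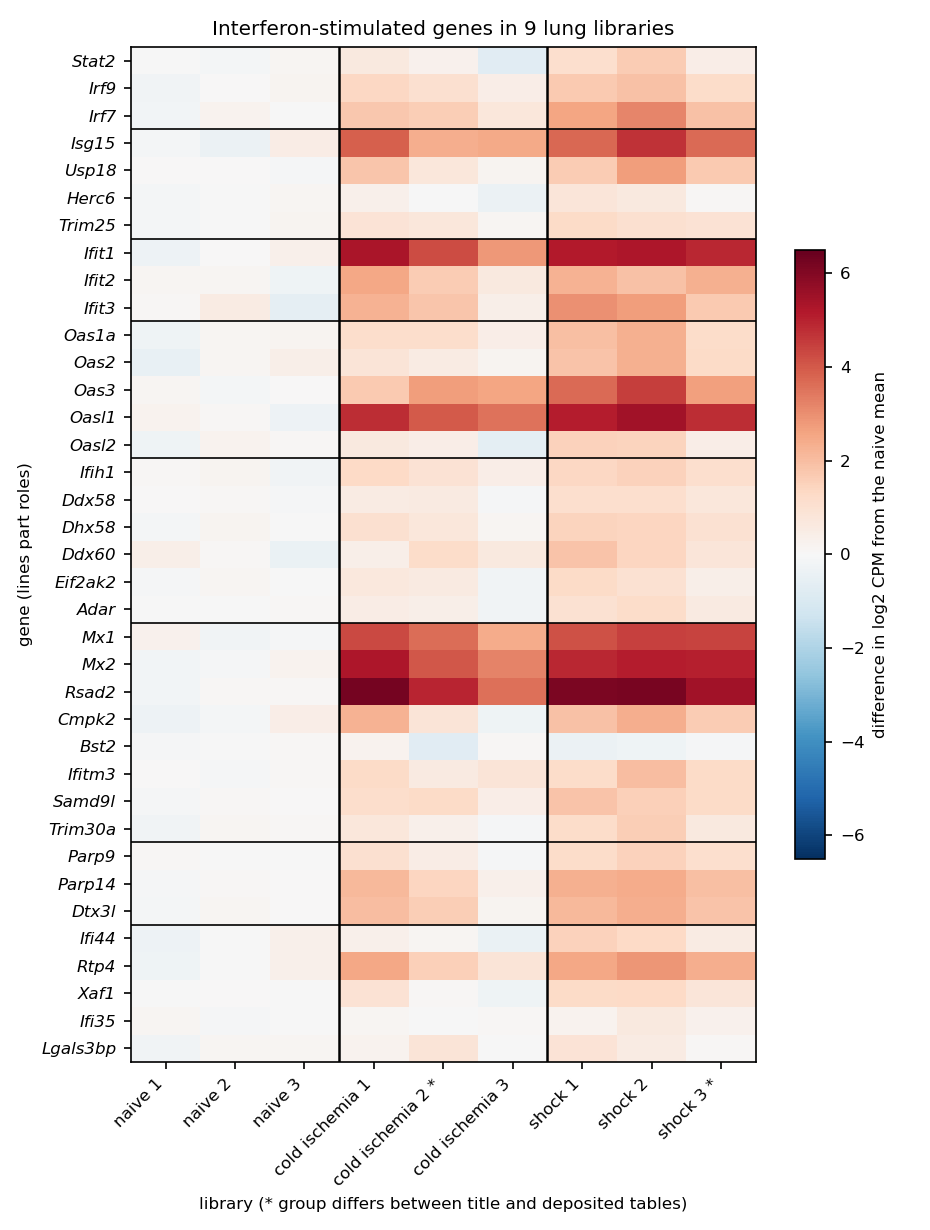
Difference in log2 CPM from the naive mean for 37 interferon-stimulated genes (rows, parted by role) in 9 libraries (columns). Rsad2, Ifit1, Oasl1, Mx1, Mx2 and Isg15 are dark red in most grafts, Bst2 and Ifi35 stay pale, and cold-ischemia replicate 3 is the palest graft column.

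The transcription factors were raised in shock grafts for 3 of 3 genes and in cold-ischemia grafts for 2 of 3. Irf7, the factor that amplifies interferon alpha genes after a first wave of interferon beta, stood at 14.5, 19.6 and 16.2 CPM in naive replicates 1 to 3, at 55.9, 49.7 and 27.8 CPM in cold-ischemia replicates 1 to 3 and at 98.1, 149 and 61.5 CPM in shock replicates 1 to 3. By titles the 3 ranges of Irf7 did not overlap, with naive lowest and shock highest. With the groups of the deposited tables the graft groups overlapped for this gene. Its log2 fold change was 1.41 ± 0.33 (SE, adjusted p = 0.00796) in cold-ischemia grafts and 2.62 ± 0.34 (adjusted p = 0.0002) in shock grafts. Irf9, the DNA-binding subunit of ISGF3, rose by 1.00 ± 0.24 (adjusted p = 0.0103) and 1.63 ± 0.25 (adjusted p = 0.000529). Its partner Stat2 stood at 39.4, 37.05 and 43.5 CPM in naive lungs, at 61.1, 47.8 and 23.9 CPM in cold-ischemia grafts and at 85.7, 125 and 53.0 CPM in shock grafts. Cold-ischemia replicate 3 was below every naive lung and all shock grafts were above them. The log2 fold change of Stat2 was 0.15 ± 0.34 (adjusted p = 0.789) in cold-ischemia grafts, negative under upper-quartile scaling, and 1.14 ± 0.34 (adjusted p = 0.0235) in shock grafts. The call in shock grafts was lost on leaving out shock replicate 2 (adjusted p = 0.087) or any 1 naive library (adjusted p from 0.0528 to 0.0772).

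Among the 4 genes of the ISG15 system, 2 rose in cold-ischemia grafts and 3 in shock grafts. Isg15 encodes a ubiquitin-like protein that is joined to other proteins and also secreted. It stood at 5.72, 4.93 and 9.003 CPM in naive lungs, at 94.8, 32.6 and 35.3 CPM in cold-ischemia grafts and at 84.2, 168 and 83.1 CPM in shock grafts. Every graft was above every naive lung, and cold-ischemia replicate 1 was above 2 of the 3 shock grafts. Isg15 rose by 3.04 ± 0.46 on the log2 scale (adjusted p = 0.000744) in cold-ischemia grafts and by 4.08 ± 0.48 (adjusted p = 0.000115) in shock grafts. Usp18, which removes ISG15 and restrains the receptor, had a log2 fold change of 1.08 ± 0.40 (adjusted p = 0.0616) in cold-ischemia grafts and rose by 2.10 ± 0.40 (adjusted p = 0.00224) in shock grafts. Usp18 passed the test in cold-ischemia grafts as well under DESeq2 (adjusted p = 0.0167), with no filter, in a fit of the 6 libraries compared, with the groups of the deposited tables (adjusted p = 0.0436), without cold-ischemia replicate 3 and without shock replicate 2. Trim25, a ubiquitin and ISG15 ligase that activates the sensor RIG-I, rose by 0.62 ± 0.19 (adjusted p = 0.0319) and 1.09 ± 0.19 (adjusted p = 0.00149). The call of Trim25 in cold-ischemia grafts was lost under upper-quartile scaling (adjusted p = 0.0878), with the replicate block (0.0553), without both disputed libraries (0.0904) and on leaving out naive replicate 1 or 2 or cold-ischemia replicate 1 or 2. Herc6, the main ISG15 ligase of the mouse, passed neither test. It stood at 16.5, 18.004 and 19.8 CPM in naive lungs, at 23.0, 17.8 and 14.0 CPM in cold-ischemia grafts and at 31.2, 28.3 and 19.1 CPM in shock grafts. Shock replicate 3 lay within the naive range, and the log2 fold change was 0.01 ± 0.22 (adjusted p = 0.975, negative under upper-quartile scaling) and 0.53 ± 0.22 (adjusted p = 0.0819). Without shock replicate 3 Herc6 passed the test in shock grafts (log2 fold change 0.72, adjusted p = 0.0198), as it did without both disputed libraries (adjusted p = 0.0265). Of the exon bases of Herc6, 13.7% are shared with a processed transcript on the same strand.

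The IFIT genes, whose products bind foreign RNA ends and block translation, rose in both graft groups for 3 of 3 genes. They lie in 1 stretch of chromosome 19, with 7111 bases between Ifit2 and Ifit3 and 52139 between Ifit3 and Ifit1 (mm10). Ifit1 (chr19:34640871-34650009) stood at 16.9, 22.4 and 26.8 CPM in naive lungs, at 867, 407 and 155 CPM in cold-ischemia grafts and at 787, 826 and 639 CPM in shock grafts. The single highest library was cold-ischemia replicate 1, and cold-ischemia replicate 3 was the lowest graft. Ifit1 rose by 4.43 ± 0.53 (adjusted p = 0.000155) and 5.09 ± 0.55 (adjusted p = 6.03e-05) on the log2 scale. Ifit2 had the smallest change of the family in shock grafts. It stood at 39.4, 40.5 and 30.3 CPM in naive lungs, at 211, 116 and 56.4 CPM in cold-ischemia grafts and at 174, 138 and 179 CPM in shock grafts. Grafts did not overlap naive lungs, and both graft groups overlapped each other. Its rise was 1.80 ± 0.37 (adjusted p = 0.00439) and 2.16 ± 0.38 (adjusted p = 0.00129). Ifit3 rose by 1.598 ± 0.47 (adjusted p = 0.0242) and 2.48 ± 0.48 (adjusted p = 0.0023), and its call in cold-ischemia grafts was lost on leaving out naive replicate 1 or 3 or cold-ischemia replicate 1 or 2. Its transcript is 98% identical to that of Ifit3b over the aligned bases. Ifit3b is not among the genes of the deposited tables, and how reads shared by the copies were counted is not known.

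The OAS genes encode enzymes that answer double-stranded RNA with a messenger that activates RNase L, and OAS-like proteins that act otherwise. Of 5, 3 rose in cold-ischemia grafts and 5 in shock grafts. Oasl1 (chr5:114923240-114937915), which in mice represses translation of Irf7 mRNA, stood at 2.83, 2.58 and 1.92 CPM in naive lungs, at 69.4, 39.4 and 29.2 CPM in cold-ischemia grafts and at 84.7, 107.97 and 68.2 CPM in shock grafts. All grafts were far above the naive lungs, and cold-ischemia replicate 1 overlapped the shock range. Oasl1 rose by 4.24 ± 0.35 (adjusted p = 1.22e-05) and 5.16 ± 0.36 (adjusted p = 3.8e-06), the smallest adjusted p of the 37 genes in both comparisons. Its neighbour Oasl2, 11005 bases away, stood at 28.3, 39.3 and 35.5 CPM in naive lungs, at 52.7, 46.0 and 21.8 CPM in cold-ischemia grafts and at 94.996, 94.6 and 45.2 CPM in shock grafts. Cold-ischemia replicate 3 was below all naive lungs. The log2 fold change of Oasl2 was 0.23 ± 0.34 (adjusted p = 0.662) and 1.19 ± 0.34 (adjusted p = 0.0188), and the call in shock grafts was lost without naive replicate 1 or 3 or shock replicate 1 or 2 (adjusted p from 0.0511 to 0.0744). The difference in size of change between these neighbours was not tested.

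Oas3 stood at 2.00, 1.67 and 1.85 CPM in naive lungs, at 6.17, 12.5 and 11.4 CPM in cold-ischemia grafts and at 24.2, 43.2 and 12.2 CPM in shock grafts. Shock replicate 3 lay within the cold-ischemia range, and Oas3 was one of 2 genes whose lowest graft was cold-ischemia replicate 1. It rose by 2.44 ± 0.43 (adjusted p = 0.00188) and 3.84 ± 0.45 (adjusted p = 0.000108). Oas1a rose by 0.94 ± 0.31 (adjusted p = 0.0385) and 1.91 ± 0.31 (adjusted p = 0.000806). Its call in cold-ischemia grafts was lost under upper-quartile scaling (adjusted p = 0.0715), without both disputed libraries (0.0515) and on leaving out any 1 of the naive libraries, cold-ischemia replicate 1 or 2 or shock replicate 1. Oas1a and Oas1g share 97.5% of aligned transcript bases, so their reads may be split. Oas1g itself reached 2.89 CPM at most and had log2 fold changes of 0.84 (adjusted p = 0.156) and 1.90 (adjusted p = 0.00404), close to those of Oas1a. Oas2 had 0.51 ± 0.31 (adjusted p = 0.25) in cold-ischemia grafts and rose by 1.83 ± 0.32 (adjusted p = 0.00119) in shock grafts.

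The RNA sensors and binders of double-stranded RNA rose in shock grafts for 6 of 6 genes, by 0.92 to 1.40 on the log2 scale, and in cold-ischemia grafts for 1 of 6. That gene was Ifih1, which encodes MDA5, the sensor of long double-stranded RNA (0.92 ± 0.21, adjusted p = 0.00742 in cold-ischemia grafts and 1.32 ± 0.21, adjusted p = 0.000789 in shock grafts). Ddx58, which encodes RIG-I, had 0.38 ± 0.18 (adjusted p = 0.139) and rose by 0.99 ± 0.18 (adjusted p = 0.00159). Dhx58, encoding the regulator LGP2, had 0.68 ± 0.25 (adjusted p = 0.0585) and rose by 1.29 ± 0.25 (adjusted p = 0.00222). Ddx58 and Dhx58 both passed the test in cold-ischemia grafts once cold-ischemia replicate 3 was left out, and Dhx58 also under DESeq2 and with the groups of the deposited tables. Ddx60, a helicase that assists RIG-I, showed the largest change of the role in shock grafts from a low level. It stood at 5.95, 4.79 and 3.41 CPM in naive lungs, at 6.12, 10.5 and 7.16 CPM in cold-ischemia grafts and at 16.8, 12.5 and 8.13 CPM in shock grafts. All grafts were above all naive lungs, and shock replicate 3 lay within the cold-ischemia range. Its log2 fold change was 0.75 ± 0.32 (adjusted p = 0.102) and 1.40 ± 0.32 (adjusted p = 0.00568). Eif2ak2, which encodes PKR, the kinase that halts translation, showed the smallest. It stood at 28.4, 32.4 and 29.6 CPM in naive lungs, at 48.9, 45.5 and 25.3 CPM in cold-ischemia grafts and at 71.8, 60.1 and 38.7 CPM in shock grafts. Cold-ischemia replicate 3 was again below all naive lungs. The log2 fold change was 0.40 ± 0.27 (adjusted p = 0.287) and 0.92 ± 0.27 (adjusted p = 0.0197), and the latter call was lost without naive replicate 1 or 3 or shock replicate 1 (adjusted p from 0.0581 to 0.0738). Adar, the editor of double-stranded RNA that limits sensing of a cell's own RNA, had 0.24 ± 0.20 (adjusted p = 0.401) and rose by 0.94 ± 0.20 (adjusted p = 0.00428). Of its exon bases, 16.8% lie opposite Chrnb2, and the labels do not say whether counting used strand.

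Of 8 other antiviral effectors, 5 rose in cold-ischemia grafts and 7 in shock grafts. Rsad2 (chr12:26442753-26456452), encoding viperin, which makes a chain-terminating nucleotide, changed most of the 37 genes in both graft groups. It stood at 3.29, 3.98 and 3.97 CPM in naive lungs, at 280.1, 118 and 45.6 CPM in cold-ischemia grafts and at 267, 275 and 168 CPM in shock grafts. The cold-ischemia grafts differed among themselves by a ratio of 6.14, the widest such ratio of the 37 genes. Rsad2 rose by 5.30 ± 0.59 (adjusted p = 9.48e-05) and 5.98 ± 0.61 (adjusted p = 4.26e-05). Cmpk2, the nucleotide kinase gene 12751 bases away that faces the other way, had 1.26 ± 0.50 (adjusted p = 0.0794, past the threshold with no filter and without cold-ischemia replicate 3) and rose by 1.95 ± 0.51 (adjusted p = 0.0111, and 0.0577 with the groups of the deposited tables without shock replicate 2). The dynamin-like Mx1 and Mx2, of which most inbred mouse strains carry disrupted alleles, rose by 3.69 ± 0.42 (adjusted p = 0.000114) and 4.46 ± 0.47 (adjusted p = 6.2e-05) in cold-ischemia grafts. In shock grafts they rose by 4.40 ± 0.43 (adjusted p = 3.36e-05) and 5.06 ± 0.47 (adjusted p = 2.48e-05). The deposited annotation lists Mx2 as a polymorphic pseudogene and the other 36 genes as protein coding. Naive lungs held 0.995 to 1.46 CPM of Mx1, and grafts 6.56 to 27.6 CPM. Ifitm3, which blocks entry of viruses from endosomes, rose by 0.92 ± 0.24 (adjusted p = 0.014, lost without naive replicate 2 or cold-ischemia replicate 1) and 1.54 ± 0.24 (adjusted p = 0.000688). Samd9l, which restricts poxviruses, rose by 0.99 ± 0.22 (adjusted p = 0.00675) and 1.57 ± 0.23 (adjusted p = 0.000393). Trim30a, a restriction factor and regulator of signalling in mice, had 0.36 ± 0.25 (adjusted p = 0.316) and rose by 1.19 ± 0.25 (adjusted p = 0.00396).

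Bst2, which encodes tetherin, a protein that holds budding virions at the cell surface, was the exception. It stood at 75.0, 76.0 and 83.5 CPM in naive lungs, at 90.8, 46.9 and 82.8 CPM in cold-ischemia grafts and at 60.5, 64.5 and 74.2 CPM in shock grafts. All shock grafts were below all naive lungs, and Bst2 was the single gene of the 37 in that position, where 27.2% of all tested genes were. Its log2 fold change was -0.09 ± 0.21 (adjusted p = 0.797) in cold-ischemia grafts and -0.24 ± 0.21 (adjusted p = 0.404) in shock grafts. With the groups of the deposited tables Bst2 was called lower in shock grafts against naive lungs (log2 fold change -0.45, adjusted p = 0.0238), where 22.3% of all tested genes were called lower, and was 0.08 in cold-ischemia grafts.

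The PARP and DTX3L genes rose for 2 of 3 in cold-ischemia grafts and 3 of 3 in shock grafts. Parp14, a mono-ADP-ribosyl transferase, stood at 92.3, 104 and 98.1 CPM in naive lungs, at 426, 262 and 123 CPM in cold-ischemia grafts and at 494, 523 and 375 CPM in shock grafts. Every graft was above every naive lung. Parp14 rose by 1.46 ± 0.35 (adjusted p = 0.00943) and 2.24 ± 0.36 (adjusted p = 0.000742). Parp9 stood at 37.7, 36.1 and 35.4 CPM in naive lungs, at 75.5, 50.008 and 34.3 CPM in cold-ischemia grafts and at 83.2, 102 and 77.7 CPM in shock grafts. All shock grafts were above all cold-ischemia grafts by titles, though not with the groups of the deposited tables. Cold-ischemia replicate 3 of Parp9 was below the naive lungs. Its log2 fold change was 0.55 ± 0.24 (adjusted p = 0.111) and 1.27 ± 0.24 (adjusted p = 0.00221). In cold-ischemia grafts it passed the test without replicate 3 (0.78, adjusted p = 0.0147). Dtx3l, whose product forms a ubiquitin ligase with PARP9, rose by 1.43 ± 0.35 (adjusted p = 0.0103) and 2.11 ± 0.36 (adjusted p = 0.00103). Parp9 and Dtx3l start on opposite strands from overlapping ends and share 458 exon bases, so some reads may be counted for either gene.

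Of 5 further induced genes, 1 rose in cold-ischemia grafts and 3 in shock grafts. Rtp4, a chaperone of receptors that also limits RNA viruses, stood at 16.4, 19.2 and 24.5 CPM in naive lungs, at 112, 57.5 and 35.9 CPM in cold-ischemia grafts and at 115, 146 and 101 CPM in shock grafts. All grafts were above all naive lungs. Rtp4 rose by 1.77 ± 0.35 (adjusted p = 0.00356) and 2.59 ± 0.36 (adjusted p = 0.000342). Of its exon bases, 13.9% are shared with another annotated gene on the same strand. Ifi44 and Xaf1, a regulator of cell death, had 0.00 ± 0.29 (adjusted p = 0.999) and 0.34 ± 0.27 (adjusted p = 0.375) in cold-ischemia grafts and rose by 1.13 ± 0.29 (adjusted p = 0.0102) and 1.14 ± 0.27 (adjusted p = 0.0067) in shock grafts. Both calls were lost with the groups of the deposited tables without shock replicate 2 (adjusted p = 0.0702 and 0.0954). The value of Ifi44 in cold-ischemia grafts had no fixed sign across alternatives.

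Ifi35, a partner of NMI in immune signalling, had the smallest positive change in shock grafts. It stood at 18.3, 16.4 and 16.4 CPM in naive lungs, at 18.6, 16.4 and 18.1 CPM in cold-ischemia grafts and at 20.1, 26.4 and 20.3 CPM in shock grafts. By titles shock grafts were above all other libraries, by a small margin. With the groups of the deposited tables they overlapped the cold-ischemia grafts. The log2 fold change was 0.06 ± 0.15 (adjusted p = 0.826, negative under upper-quartile scaling) and 0.39 ± 0.15 (adjusted p = 0.0696). DESeq2 called it higher in shock grafts (0.41, adjusted p = 0.0385). An antisense gene lies opposite 16.8% of its exon bases. Lgals3bp, a secreted glycoprotein, stood at 93.0, 117 and 117 CPM in naive lungs, at 125, 197 and 107.1 CPM in cold-ischemia grafts and at 202, 158 and 113 CPM in shock grafts. Both graft groups overlapped the naive range, with 0.39 ± 0.25 (adjusted p = 0.278) and 0.53 ± 0.25 (adjusted p = 0.119). It passed the test in shock grafts without shock replicate 3 (0.72, adjusted p = 0.0382), without both disputed libraries (adjusted p = 0.00965) and with the groups of the deposited tables (0.77, adjusted p = 0.0015).

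Levels between genes were compared on the authors' FPKM values, which divide by gene length. In naive lungs Ifitm3 was highest at 326 ± 13.4 FPKM (SD, n = 3) and Bst2 second at 119 ± 4.23 FPKM. Mx1 at 0.408 ± 0.0888 FPKM and Oas3 at 0.453 ± 0.0445 FPKM were the lowest and did not differ beyond their spread. In shock grafts Ifitm3 was still first (749.8 ± 255 FPKM), while Ifit1 stood second at 259 ± 30.6 FPKM after rank 20 of 37 in naive lungs (9.59 ± 1.94 FPKM). Rsad2 moved from rank 33 (1.04 ± 0.096 FPKM) to rank 9 (51.6 ± 12.3 FPKM). Ddx60 was last in both graft groups, at 1.24 ± 0.367 and 1.90 ± 0.629 FPKM.

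Shock grafts were compared with cold-ischemia grafts directly. By the titles none of the 37 genes passed the test, and 0% of all tested genes did, with a lowest adjusted p of 0.671 in edgeR's quasi-likelihood test. At an unadjusted p under 0.05 there were 23 of the 37 genes and 7.28% of all tested genes (1152 genes). The 37 genes are not independent of each other: cold-ischemia replicate 3 was the lowest graft for 31 of them. Counts of these genes therefore cannot be read as separate observations. DESeq2 called 7 genes higher and 1 lower, and 0 of the 37. The log2 difference was positive for 36 of the 37 genes, with a median of 0.69, a lowest value of -0.15 (Bst2) and a highest of 1.40 (Oas3), where 51.5% of all tested genes were positive and their median was 0.01. All 3 shock grafts lay above all 3 cold-ischemia grafts for 9 genes, Irf7, Trim25, Oas1a, Oas2, Ddx58, Adar, Parp9, Ifi44 and Ifi35, where 5.45% of all tested genes did. With the groups of the deposited tables the graft groups overlapped for each of these 9 genes. By titles none of the 37 had all shock grafts below all cold-ischemia grafts (4.91% of all tested genes). The median of the 37 genes was 0.42 without cold-ischemia replicate 3 and 1.08 without cold-ischemia replicate 1.

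With the groups of the deposited tables, 0 of the 37 genes passed the same test, where 0.783% of all tested genes did (0.227% higher and 0.556% lower), and the median log2 difference was 0.48. At an unadjusted p under 0.05 there were 14 of the 37 genes and 19.4% of all tested genes. Oas3 (1.42 ± 0.39, adjusted p = 0.104), Ddx60 (0.89 ± 0.25, adjusted p = 0.108), Samd9l (0.58 ± 0.22, adjusted p = 0.187) and Lgals3bp (0.69 ± 0.14, adjusted p = 0.0568) had all shock grafts above all cold-ischemia grafts in that grouping, as had 10.9% of all tested genes. Bst2 had them all below (-0.53 ± 0.14, adjusted p = 0.0965), as had 12.4%. The authors' deposited table called 3 of the 37 genes higher, Lgals3bp at a log2 fold change of 0.64 (adjusted p = 0.00761), Oas3 at 0.99 (adjusted p = 0.0256) and Ddx60 at 0.77 (adjusted p = 0.0258), where 3.1% of genes with an adjusted p were called in that table. Without both libraries of disputed group 0 of the 37 genes passed, where 0.056% of all tested genes were called higher and 0.187% lower, and the median was 0.83. With the groups of the deposited tables without shock replicate 2, an alternative chosen after seeing the data, the log2 difference was positive for 28 of the 37 genes.

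The graft libraries differed from each other across most of the 37 genes. Taking the difference in log2 CPM from the naive mean, the median over the 37 genes was 1.17, 0.86 and 0.20 in cold-ischemia replicates 1 to 3 and 1.69, 1.92 and 1.21 in shock replicates 1 to 3. Cold-ischemia replicate 3 was thus the graft nearest to naive lungs, whose medians were -0.10, 0.05 and 0.05. It was the lowest graft for 31 of the 37 genes. Shock replicate 2 was the highest graft for 21 genes, shock replicate 1 for 11 and cold-ischemia replicate 1 for 5, which include Ifit1, Ifit2, Mx2 and Rsad2. The disputed libraries fell between the others: shock replicate 3 (1.21) lay just above cold-ischemia replicate 1 (1.17), and cold-ischemia replicate 2 (0.86) below it. By titles the medians of the groups therefore did not overlap, by a narrow margin, and by the groups of the tables they overlapped. The median ratio of the highest to the lowest library within a group was 1.25 in naive lungs, 2.01 in cold-ischemia grafts and 1.602 in shock grafts, against 1.25, 1.38 and 1.51 over all tested genes.

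**Figure D4:**
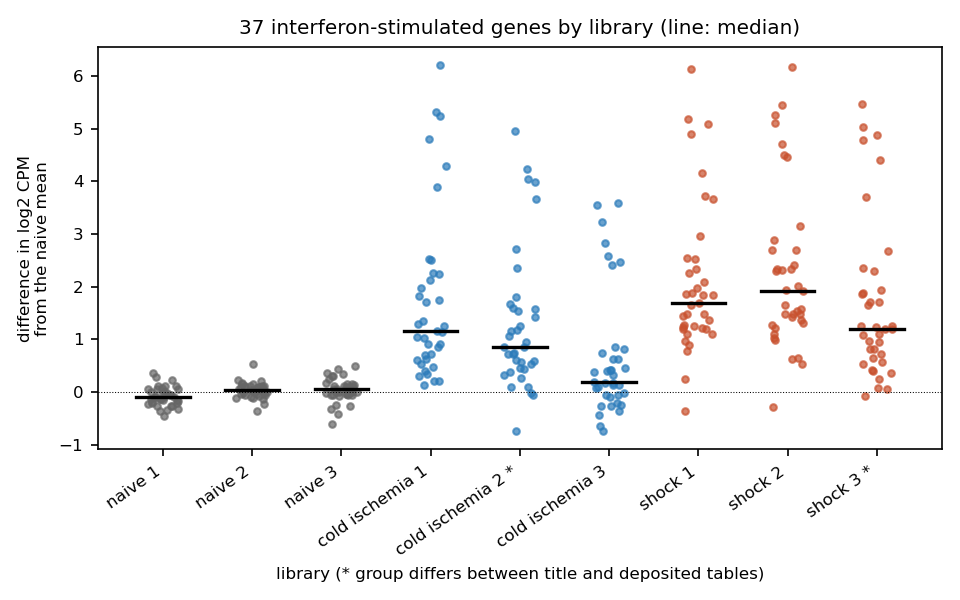
Difference in log2 CPM from the naive mean on the y axis for each of 37 interferon-stimulated genes (points) in 9 libraries, with the median of the 37 as a line. Medians are near 0 in naive lungs, 0.20 to 1.17 in cold-ischemia grafts and 1.21 to 1.92 in shock grafts, and stars mark the libraries of disputed group.

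The ligand of the pathway was measured at very low counts. Ifnb1, encoding interferon beta, had 3, 0 and 0 reads in naive lungs, 46, 16 and 34 in cold-ischemia grafts and 32, 2 and 17 in shock grafts. Shock replicate 2 was at the naive level for this gene and had the highest level of 21 of the 37 interferon-stimulated genes. Summed over a group and scaled to library size, Ifnb1 was 45.4 times as high in cold-ischemia grafts as in naive lungs, with a 95% exact interval of 15.1 to 224 for counting error only. In shock grafts the ratio was 24.8, with an interval of 8.04 to 124. All 3 naive reads came from replicate 1, and leaving out 1 library moved the fitted log2 fold change between 4.69 and 8.14 in cold-ischemia grafts and between 3.64 and 7.19 in shock grafts. Both differences passed edgeR's quasi-likelihood test (adjusted p = 0.004 and 0.0102). The other type I and III ligands in the tables, Ifna1, Ifna4, Ifna5, Ifnz, Ifnk and Ifnl2, had at most 7 reads in any library and were not tested. Ifng, the type II ligand, whose targets overlap with these genes, rose by 2.71 (adjusted p = 0.00586) in cold-ischemia grafts and 2.16 (adjusted p = 0.0163) in shock grafts, from 0.146 ± 0.0503 CPM in naive lungs (SD, n = 3). The call in shock grafts was lost without naive replicate 2 or 3 or shock replicate 2 (adjusted p from 0.053 to 0.0655). The naive level of Ifng was near the worth of 3 reads, 0.0759 to 0.136 CPM in these libraries. Shock replicate 1 was the lowest graft for Ifng, at 0.293 CPM.

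Of 6 interferon receptor chains, 3 rose in cold-ischemia grafts and 5 in shock grafts, where 17.5% and 22% of all tested genes were called higher. Ifnar1 stood at 82.2, 85.0 and 86.4 CPM in naive lungs, at 108.7, 109.6 and 95.5 CPM in cold-ischemia grafts and at 147, 132 and 116 CPM in shock grafts. The 3 ranges did not overlap by titles, and the graft groups overlapped with the groups of the deposited tables. Its log2 fold change was 0.31 ± 0.13 (adjusted p = 0.094) and 0.64 ± 0.13 (adjusted p = 0.00274). Ifnar2 rose by 0.58 ± 0.15 (adjusted p = 0.013) and 0.75 ± 0.15 (adjusted p = 0.00252), with the former call lost under upper-quartile scaling (adjusted p = 0.0583) and without naive replicate 2 (adjusted p = 0.0643).

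Of 8 kinases and IRFs outside the 37 genes, 4 rose and 3 fell in cold-ischemia grafts, and 5 rose and 0 fell in shock grafts. Shares over all tested genes were 17.5% higher and 13.1% lower in cold-ischemia grafts, and 22% and 17.9% in shock grafts. Jak1 (1.07 and 1.15) and Jak2 (1.32 and 1.82) rose in both, while Tyk2 fell in cold-ischemia grafts (-0.58, adjusted p = 0.0197) and had -0.42 (adjusted p = 0.0602) in shock grafts. The former call of Tyk2 was lost without naive replicate 1 or cold-ischemia replicate 1 (adjusted p up to 0.0901), and Tyk2 was called lower in shock grafts under upper-quartile scaling (adjusted p = 0.0091) and without shock replicate 2 (adjusted p = 0.0265). The rise of Irf8 in shock grafts (0.89, adjusted p = 0.0144) was lost with the groups of the deposited tables (0.68, adjusted p = 0.0621) and without naive replicate 3 (adjusted p = 0.0505). Irf1, a factor that interferon gamma and NF-kB induce, rose by 2.20 ± 0.19 (adjusted p = 1.99e-05) and 2.43 ± 0.20 (adjusted p = 9.05e-06). Irf3, the factor that starts Ifnb1 transcription without needing new synthesis, fell by 0.58 ± 0.19 in cold-ischemia grafts (adjusted p = 0.0387). That call was lost with the groups of the deposited tables (adjusted p = 0.0637), without both disputed libraries (0.0983), with the replicate block (0.0718) and on leaving out any 1 naive library or cold-ischemia replicate 1 or 2. In shock grafts it had -0.33 ± 0.19 (adjusted p = 0.188), called lower under upper-quartile scaling (-0.55, adjusted p = 0.0336) and without shock replicate 2 (-0.55, adjusted p = 0.0206).

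Of 14 nucleic acid sensors and adaptors outside the 37 genes, 9 rose and 1 fell in cold-ischemia grafts, and 10 rose and 1 fell in shock grafts. Shares over all tested genes were 17.5% higher and 13.1% lower in cold-ischemia grafts, and 22% and 17.9% in shock grafts. The cGAS gene, listed as Mb21d1, rose by 2.04 (adjusted p = 0.00228) and 2.93 (adjusted p = 0.00022), and Tmem173, encoding STING, by 1.14 (adjusted p = 0.00733) and 1.64 (adjusted p = 0.00076). Myd88, the adaptor of most Toll-like receptors, rose by 1.93 (adjusted p = 0.000149) and 2.45 (adjusted p = 2.71e-05). Mavs, the adaptor of RIG-I and MDA5, was the gene that fell, by 0.95 (adjusted p = 0.000872) and 1.25 (adjusted p = 0.00013). Tlr3, the endosomal receptor of double-stranded RNA, had -0.33 ± 0.25 (adjusted p = 0.355) and -0.36 ± 0.25 (adjusted p = 0.272), with 14.0 to 27.2 CPM in grafts and 23.6 to 29.7 CPM in naive lungs. Zbp1, a sensor of Z-form nucleic acid, had 5.58, 7.28 and 6.35 CPM in naive lungs, 15.7, 14.6 and 7.48 CPM in cold-ischemia grafts and 20.7, 34.0 and 15.7 CPM in shock grafts. It rose by 0.98 ± 0.33 (adjusted p = 0.0435) and 1.88 ± 0.33 (adjusted p = 0.00138), and the call in cold-ischemia grafts was lost under upper-quartile scaling, without both disputed libraries, and without any 1 naive library, cold-ischemia replicate 1 or 2, or shock replicate 1 (adjusted p from 0.0537 to 0.147). Of 9 tested negative regulators, 6 rose in cold-ischemia grafts and 7 in shock grafts. Socs1, the inhibitor of JAK kinases, stood at 3.12, 4.21 and 4.38 CPM in naive lungs, at 63.0, 27.6 and 19.4 CPM in cold-ischemia grafts and at 41.1, 51.6 and 50.6 CPM in shock grafts, a rise of 3.23 ± 0.39 (adjusted p = 0.000167) and 3.61 ± 0.40 (adjusted p = 6.98e-05).

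**Figure D5:**
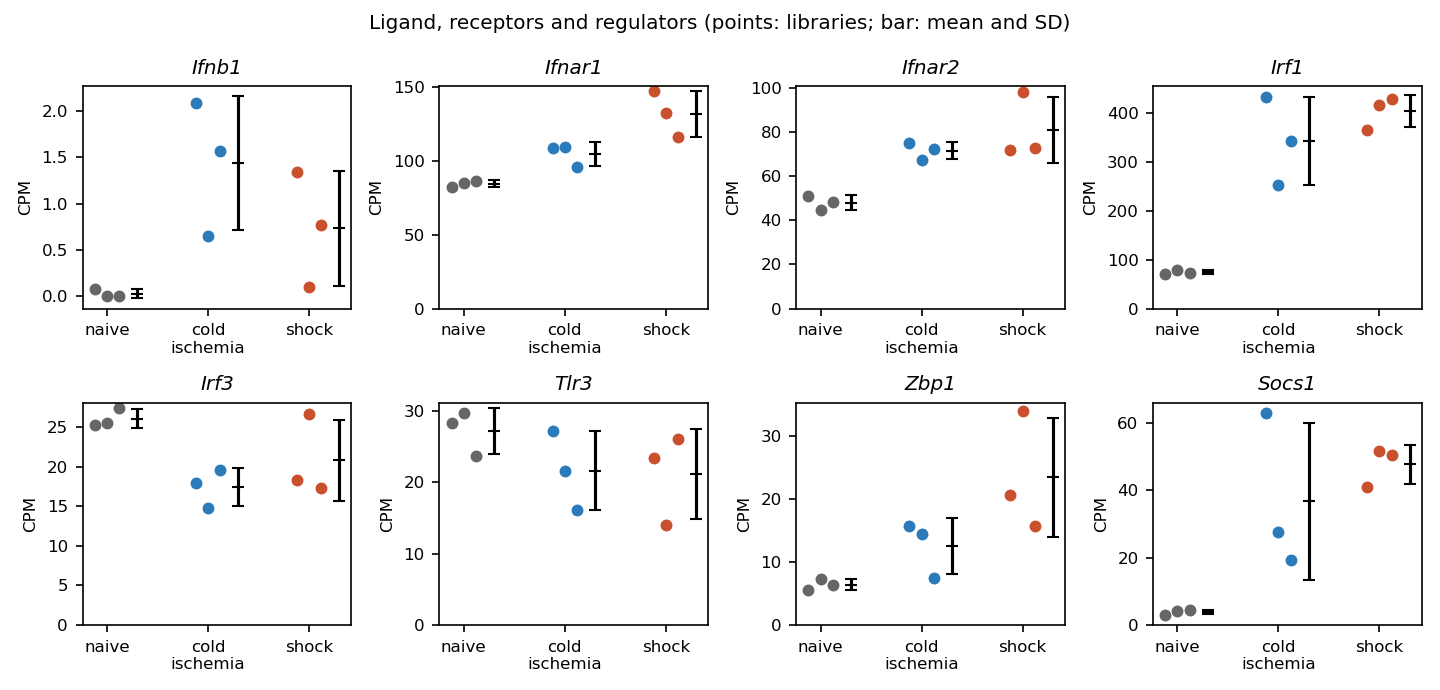
CPM of the ligand gene Ifnb1, the receptor chains Ifnar1 and Ifnar2 and 5 regulators or sensors in 9 libraries (points), with the group mean and SD as bars. Irf1 and Socs1 are several times higher in all grafts than in naive lungs, Irf3 and Tlr3 overlap or lie below the naive lungs, and 1 shock graft has Ifnb1 at the naive level.

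Of 14 tested close copies of the 37 genes, 3 rose and 1 fell in cold-ischemia grafts and 9 rose in shock grafts. Over all tested genes 17.5% were called higher and 13.1% lower in cold-ischemia grafts, and 22% higher in shock grafts. The counts of the copies in cold-ischemia grafts lay near these shares. Trim30c, at 0.147 ± 0.104 CPM in naive lungs, reached 3.76 ± 1.58 CPM in cold-ischemia grafts and 8.43 ± 1.02 CPM in shock grafts, while Trim30d had a log2 fold change of 0.05 (adjusted p = 0.878) in cold-ischemia grafts. The transcripts of Trim30a and Trim30c are 82.9% identical over the aligned bases.

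Markers of several other cell types changed in the grafts, and those of others mostly did not pass the test. Shares over all tested genes, to be set beside the counts below, were 17.5% higher and 13.1% lower in cold-ischemia grafts. In shock grafts they were 22% and 17.9%. All 10 neutrophil markers rose in both graft groups, and their summed level was 50.7 to 79.3 CPM in naive lungs, 1071 to 2047 CPM in cold-ischemia grafts and 1661 to 3068 CPM in shock grafts. By titles the order was reversed within the cold-ischemia grafts. Replicate 3, with the lowest interferon-stimulated genes, had the highest neutrophil sum (2047 CPM), and replicate 1 the lowest (1071 CPM). Within the shock grafts the order was the same for both: the neutrophil sums of replicates 1 to 3 were 2643, 3068 and 1661 CPM, beside medians of the 37 genes of 1.69, 1.92 and 1.21. With the groups of the deposited tables the cold-ischemia order was not reversed throughout. Shock replicate 3, with the middle neutrophil sum of that group, had its highest median. In the shock group of the tables cold-ischemia replicate 2 was lowest in both (1246 CPM and 0.86). These orders were not tested. Of 7 monocyte markers, 3 rose and 1 fell in cold-ischemia grafts and 6 rose and 1 fell in shock grafts, with sums of 93.6 to 124, 612 to 724 and 716 to 1147 CPM. The median log2 fold change of these markers was 0.85 and 1.38, so the rise of the sums was not shared evenly among them. Of 6 markers of plasmacytoid dendritic cells, the classical producers of interferon alpha, 3 rose in cold-ischemia grafts and 1 in shock grafts, with sums of 202 to 226, 225 to 247 and 190 to 270.3 CPM. Mesothelial markers fell for 4 of 5 genes in both graft groups, from 192 to 257 CPM in naive lungs to 4.17 to 56.4 and 11.0 to 40.8 CPM. B cell markers fell for 5 of 6 genes in both graft groups, with sums of 72.4 to 95.2, 29.8 to 46.03 and 34.1 to 47.3 CPM. Of the 6 endothelial markers 3 fell and 1 rose in shock grafts, and 0 passed the test in cold-ischemia grafts, where edgeR gave a lowest adjusted p of 0.051. Of 8 alveolar macrophage markers, 0 passed the test in cold-ischemia grafts, and 1 rose and 2 fell in shock grafts. Of 6 T cell markers, 1 rose in each graft group. Of 6 NK cell markers, 1 rose and 2 fell in cold-ischemia grafts, and 1 rose and 1 fell in shock grafts. Of 6 alveolar type 2 markers, 1 fell in each graft group. Of 5 alveolar type 1 markers, 1 rose in cold-ischemia grafts and 1 fell in shock grafts. No marker of these lists was at 0 in all libraries. The part of these cell types in the changes of the 37 genes was not tested.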

How the data were processed

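Whole left lung RNA (1 ug of total RNA per library, paired reads of 150 bp) was sequenced in 9 libraries, per the labels. The authors deposited 3 tables, each comparing 2 groups. Per the file headers they hold the read count per gene, FPKM, and the authors' log2 fold change, p-value and adjusted p-value. A further column of normalized signal, the deposited count divided by 1 size factor per library, was checked and not used for results. The submitters' processing notes name STAR, HTSeq, DESeq2, edgeR and STAR-Fusion and the build mm10. Versions, annotation and strand setting are not given in the sources used here. The 37 genes and all lists were chosen with earlier results of these data known.

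Counts were joined by gene identifier, and no repeated count differed between tables. After filterByExpr and TMM scaling, 1 model of the 9 libraries was fitted in edgeR (version 4.0.16, under R 4.3.3), and each contrast took its two-sided quasi-likelihood test. P-values were Benjamini-Hochberg adjusted over 15834 genes, with a threshold of 0.05. CPM values divide by library sizes after TMM, whose factors were 1.13 to 1.18 in naive libraries and 0.90 to 0.97 in grafts. The fit was tested on simulated counts for shock grafts against naive lungs. It recovered 38 of 100 genes given a log2 change of 1 in either direction, and 82 of 100 given a change of 2. There were 13 false calls in 15834 genes, beside the 38 and 82 true ones. A gene that was not called is therefore not shown to be unchanged. A count of 3 reads was worth 0.0759 to 0.149 CPM, depending on the library, and intervals cover counting error only. Genes described with a value in every library were, per role, those of largest and smallest change in shock grafts, those called in neither comparison with naive lungs, and those called between graft groups. Genes outside the 37 were Ifnb1, Ifnar1, Ifnar2, Irf1, Irf3, Tlr3, Zbp1, Socs1 and copies of over 90% identity, measured on transcripts since no proteins were at hand. Others were named after their values were seen, and 1 gene of the rule is not reported here. Alternatives changed scaling, filter, test, libraries in the fit, groups, replicate block, or left out libraries.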

Additional observations from a re-analysis of the deposited data

How the results depend on the processing

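The number of the 37 genes called higher than in naive lungs stayed within 1.5 times of the reported count under every alternative run. When 1 library was left out it was 15 to 24 in cold-ischemia grafts and 30 to 35 in shock grafts. It was 15 without cold-ischemia replicate 1, where 13.9% of all tested genes were called higher. It was 24 without cold-ischemia replicate 3, where 15.9% were. In shock grafts 17% to 21.7% of all tested genes were called higher in these fits. Upper-quartile scaling moved the median of all tested genes by -0.18 in cold-ischemia grafts and -0.22 in shock grafts against naive lungs. It gave 2186 genes higher and 3371 lower in cold-ischemia grafts in place of 2768 and 2078, and 2681 higher and 4661 lower in shock grafts in place of 3483 and 2836, with 17 and 33 of the 37 genes higher. On leaving out 1 library the genes called lower ran from 1288 to 2568 in cold-ischemia grafts, the lowest without naive replicate 2 and 1323 without cold-ischemia replicate 1. In shock grafts they ran from 1869 (without naive replicate 2) to 3112. Between graft groups no gene was called on leaving out any 1 library. DESeq2 called 7 genes higher and 1 lower there, and leaving out both disputed libraries 9 and 30. The groups of the deposited tables gave 36 and 88, with 1 of the 37 genes, Bst2, lower in shock grafts against naive lungs.

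An alternative chosen after seeing the data used the groups of the deposited tables without shock replicate 2. It called 23 of the 37 genes higher in cold-ischemia grafts (22.2% of all tested genes) and 30 in shock grafts (23.6%). It called 3245 genes lower in cold-ischemia grafts, 1 of the 37 (Bst2) lower in shock grafts against naive lungs, and 166 genes higher and 389 lower between graft groups, with 1 of the 37 higher (Lgals3bp, 0.79, adjusted p = 0.0147) and 1 lower (Bst2, -0.62, adjusted p = 0.0434).

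Deviations from the group means correlated at -0.39 to 0.10 over 9 pairs of libraries with the same replicate number. Over 18 pairs with different numbers they correlated at -0.36 to 0.32. Since deviations within a group cancel, these values cannot decide whether the replicate number pairs the samples. With the number as a replicate block, 18 of the 37 genes were higher in cold-ischemia grafts (15.7% of all tested genes), 33 in shock grafts (20.1%) and 0 between graft groups (0%), and the value of Herc6 in cold-ischemia grafts was -0.03.

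Values that changed sign were all of differences that had not passed the test, and the cause was not tested. In cold-ischemia grafts against naive lungs upper-quartile scaling gave -0.041 for Stat2, -0.17 for Herc6 and -0.13 for Ifi35, and no filter gave -0.0011 for Herc6. Leaving out 1 library gave ranges of -0.16 to 0.44 for Stat2, -0.19 to 0.17 for Herc6, -0.0155 to 0.52 for Oasl2 and -0.27 to 0.15 for Bst2. Xaf1 was -0.07 without cold-ischemia replicate 1, and Ifi44 was -0.18 under upper-quartile scaling. Positive values in cold-ischemia grafts numbered 32 of the 37 under upper-quartile scaling and 31 without cold-ischemia replicate 1, in place of 36. Bst2 was 0.08 with the groups of the tables, 0.15 without both disputed libraries and 0.0806 with the groups of the tables without shock replicate 2. Between graft groups the groups of the tables gave -0.0575 for Ifit2, -0.22 for Irf1 and -0.15 for Socs1. Without shock replicate 2 these groups gave -0.28 for Isg15, -0.033 for Ifit2, -0.056 for Ifi35, -0.075 for Ifnar2, -0.38 for Irf1, -0.14 for Irf3 and -0.37 for Socs1, and also -0.14 for Usp18, -0.19 for Ifitm3, -0.20 for Mx2, -0.082 for Cmpk2 and -0.012 for Mx1. Leaving out 1 library gave -0.39 to 0.034 for Bst2, -0.21 to 0.19 for Tlr3, -0.0079 to 0.92 for Ifit2 and -0.079 to 0.44 for Lgals3bp. With 3 libraries a group, differences between graft groups of the size seen for most of the 37 genes did not pass the test, which does not show that the groups were alike.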
